A study of Homo sapiens with 3 samples.

Results

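The integrin and laminin subunit genes were followed in HCT116 cells, a human colorectal cancer cell line, after knockdown of SMARCA4. The members were the transcript probes of the array whose gene name is that of an integrin alpha subunit, an integrin beta subunit or a laminin alpha, beta or gamma chain. These were 58 of the 58201 transcript probes and stood for 38 genes, with 18 integrin alpha, 8 integrin beta and 12 laminin genes. Of the 38 genes, 28 had a probe well above background, by the flag of the extraction software, on at least 1 of the 3 arrays. These 28 comprised 18 integrin and 10 laminin genes.

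Total RNA was measured on 1-colour arrays in cells transfected with small interfering RNA against SMARCA4, the motor of the SWI/SNF complex that moves nucleosomes. The groups were SMARCA4-KD1, SMARCA4-KD2 and a scrambled negative control (NC), with 1 array per group and the same parental line throughout, and the time after transfection is not given in the sources used here. The sample titles name SMARCA4, while the treatment field names PRMT1-KD1, PRMT1-KD2 and PRMT1-NC. The knockdown number was taken from that field, and which small interfering RNA each number stands for is not stated. The NC array was hybridised on a different slide from the knockdowns, so slide and knockdown cannot be told apart.

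The labels were first checked against the targeted gene. Where 3 signals follow each other, here and for every gene, they are the processed signals of SMARCA4-KD1, then SMARCA4-KD2, then NC, and a pair of log2 changes is SMARCA4-KD1, then SMARCA4-KD2, each against NC. SMARCA4 had signals of 3960, 4129 and 14026, which was 26.6% and 28.8% of NC after scaling each array to its 75th percentile. PRMT1, the arginine methyltransferase named in the treatment field, had signals of 9801, 10147 and 7683 and was 1.20-fold and 1.29-fold higher than in NC. Between 45.7% and 47.3% of the probes were well above background, no probe was saturated, and the lowest signal well above background was 16.2 to 17.7. Of 6 epithelial markers, EPCAM, KRT8, KRT18, KRT19 and CDH1 were well above background on every array and VIL1 on none, and none of them was 1.5-fold from NC.

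An oligonucleotide named for SMARCA4 in the protocol is shown because knockdown values rest on it. The strand that it stands for is not stated.
siRNA-1: ucgcuuugguucgcaaauc

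Integrins are adhesion receptors made of 1 alpha and 1 beta subunit, and the pair determines the ligand. The alpha subunits fall into groups that bind laminins, collagens or the RGD tripeptide of fibronectin and vitronectin, and into a group found mainly on leukocytes. Laminins are trimers of an alpha, a beta and a gamma chain and are the main adhesive proteins of basement membranes. In epithelia, laminin-332, which contains LAMA3 and LAMB3, is bound by the integrin alpha3 beta1 and by alpha6 beta4, the receptor of hemidesmosomes. Cytoplasmic adaptors such as talin, kindlin, ILK and the parvins join the beta subunit tails to actin.

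RefSeq promoters (GRCh38.p14, the 250 bases before each gene start) were found for 21 of the 28 measured members, with 28 starts in all. LAMA3, ITGB8 and ITGA10 are shown because they were among the 5 members at least 1.5-fold below NC in both knockdowns. LAMB3 is shown because, of the 21 members searched, only LAMA3 and LAMB3 held the AP-1 motif. Capitals mark the AP-1 motif TGANTCA and the GC box GGGCGG, searched on both strands, and a GC box on the other strand reads as its reverse complement. The LAMA3 window is chr18:23872770-23873019 on the plus strand, ITGB8 is chr7:20330650-20330899 on the plus strand, ITGA10 is chr1:145910051-145910300 on the minus strand and LAMB3, at 1 of its 3 listed starts, is chr1:209651375-209651624 on the minus strand.
LAMA3: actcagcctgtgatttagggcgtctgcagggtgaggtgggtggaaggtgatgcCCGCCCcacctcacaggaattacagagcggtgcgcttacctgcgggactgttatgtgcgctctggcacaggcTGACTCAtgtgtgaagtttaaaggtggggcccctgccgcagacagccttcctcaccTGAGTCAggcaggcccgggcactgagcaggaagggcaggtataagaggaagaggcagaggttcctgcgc
LAMB3: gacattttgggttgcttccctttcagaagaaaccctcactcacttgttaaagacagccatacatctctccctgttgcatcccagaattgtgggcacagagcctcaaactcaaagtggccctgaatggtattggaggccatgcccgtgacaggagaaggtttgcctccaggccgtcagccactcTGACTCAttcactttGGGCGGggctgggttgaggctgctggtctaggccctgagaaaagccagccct
ITGB8: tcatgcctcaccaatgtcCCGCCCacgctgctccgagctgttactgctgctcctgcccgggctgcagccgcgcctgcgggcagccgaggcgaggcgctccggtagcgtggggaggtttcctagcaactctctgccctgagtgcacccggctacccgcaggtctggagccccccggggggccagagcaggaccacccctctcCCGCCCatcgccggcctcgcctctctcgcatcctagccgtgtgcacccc
ITGA10: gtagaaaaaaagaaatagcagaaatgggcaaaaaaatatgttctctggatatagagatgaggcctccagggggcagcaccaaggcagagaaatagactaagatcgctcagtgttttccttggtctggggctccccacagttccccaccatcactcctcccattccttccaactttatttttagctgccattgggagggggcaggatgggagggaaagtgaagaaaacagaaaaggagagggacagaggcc

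LAMA3 held 2 AP-1 motifs, beginning 125 and 69 bases before the start, and LAMB3 held 1, beginning 67 bases before it. Over all RefSeq promoters of the same length, 6.57% of 35116 held this motif, beside 7.14% of the members' 28 promoters. The GC box was present in 57.1% of the members' promoters and in 42.6% of all, and the TATAAA motif in 7.14% and 10.72%. The ITGB8 window held 2 GC boxes, and in the ITGA10 window none of the 3 motifs was found. A match describes the letters of the window, and no binding was measured. The tables used here held no promoter of ITGA3 or ITGAX.

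Over the 28 measured subunits, levels were lower more often than higher in the knockdowns. At 1.5-fold, the threshold of the study's methods, 7 members were lower in SMARCA4-KD1, where 12.3% of the 22620 measured genes were lower, and 5 were lower in SMARCA4-KD2, where 9.73% of all genes were. The 5 were lower in both knockdowns and made up 17.9% of the members, beside 8.02% of all genes. They were LAMA3, ITGB8, ITGA3, ITGA10 and ITGAX. ITGAX entered only through its level in NC, and among the 26 members well above background on all arrays the count was 4, or 15.4%, beside 7.51% of all genes. No member was 1.5-fold higher in SMARCA4-KD1 (11.1% of all genes), in SMARCA4-KD2 (10.1%) or in both (6.35%). By any amount, 19 members were lower in both knockdowns, 5 were higher in both and 4 differed in sign, where 39.4% of all genes were lower in both and 41.1% higher in both. The median log2 changes of the members were -0.29 and -0.28, and those of all genes were -0.004 and 0.02.

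These counts depended on the background correction and on the offset added to the signals. With normexp background correction of the raw signals and an offset of 50, only LAMA3 was 1.5-fold lower in both knockdowns, which was 3.57% of the members beside 3.79% of all genes. The changes of ITGA3 were then -0.54 and -0.83. Both parts of this setting were also run alone, a choice made after the data were seen. With normexp and no offset 4 members were lower in both (LAMA3, ITGB8, ITGA10 and ITGAX), or 14.3% beside 7.06% of all genes. The ITGAX probe again entered only through its level in NC. With 50 added to the processed signal and no normexp only LAMA3 and ITGA3 were lower in both, or 7.14% beside 4.10%. An added offset shrinks the folds of dim probes such as those of ITGB8, ITGA10 and ITGAX. The brighter ITGA3 probe changed in SMARCA4-KD1 by -0.57 with normexp alone, short of 1.5-fold, and by -0.65 with the offset alone. Any error of the single NC array enters both changes. With 1 array per condition no member's difference has a replicate check, and the errors given here are those of the extraction software's error model, which was 0.20 on the log2 scale for a member of median error.

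**Figure D1:**
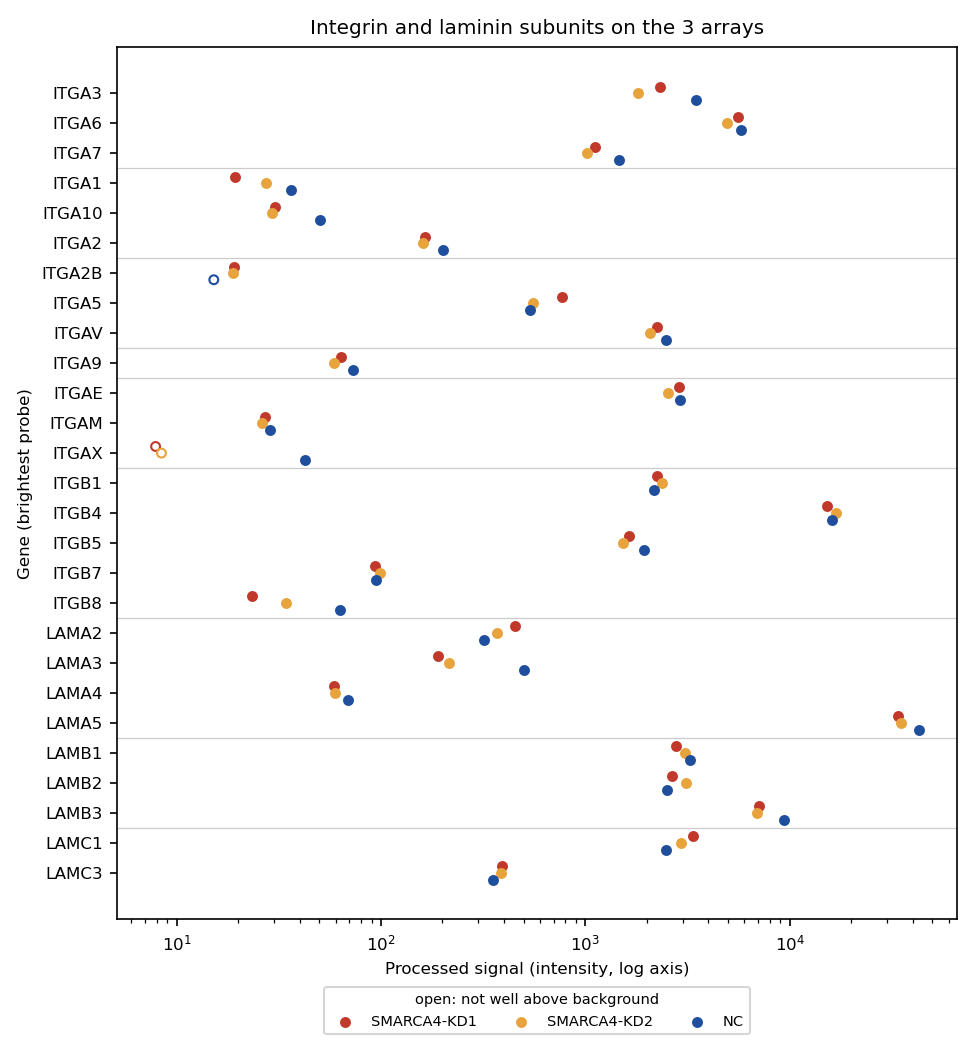
Processed signal (log axis) of the brightest probe of measured subunits on the 3 arrays, grouped by role from laminin-binding alpha subunits at the top to laminin gamma chains at the bottom. Open circles are values not well above background, and the blue NC point lies to the right of both knockdown points for LAMA3 (503 against 191 and 216), ITGB8 and ITGA3.

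**Figure D2:**
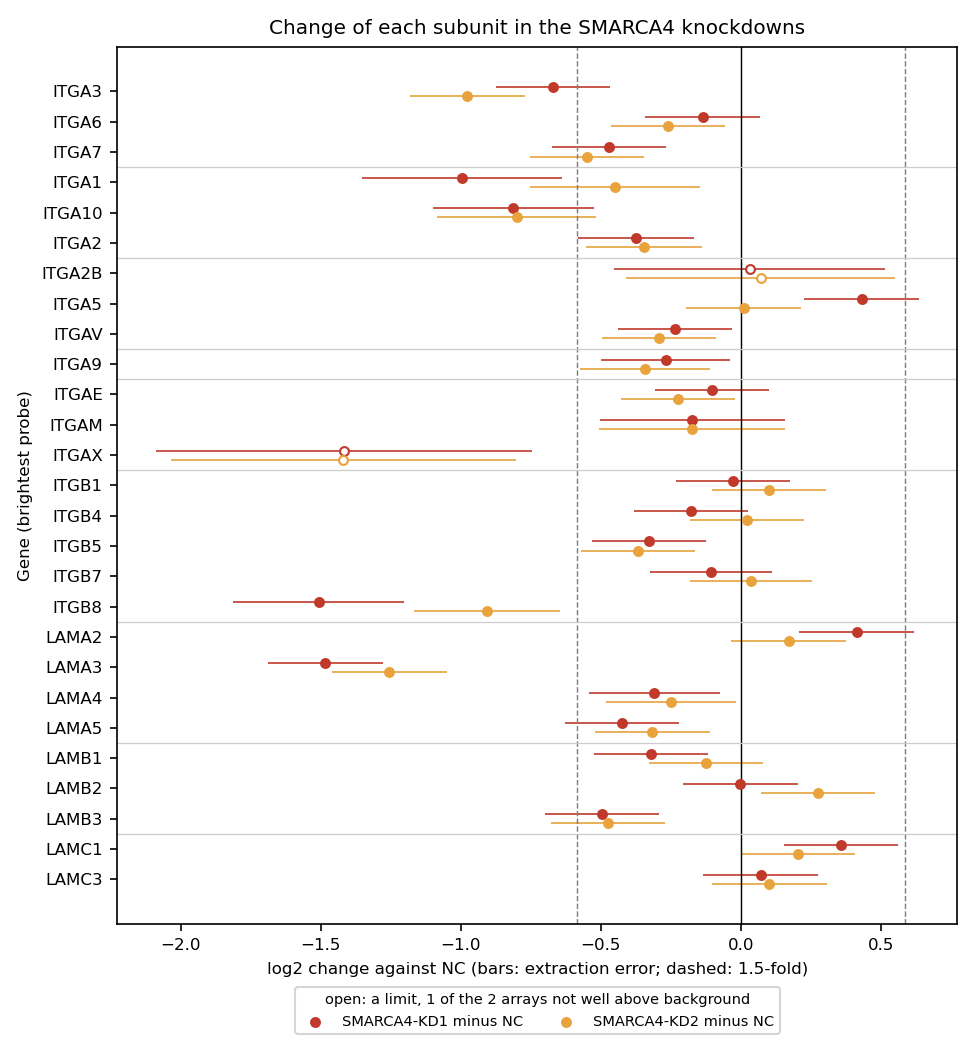
Log2 change of measured subunits against NC in SMARCA4-KD1 and SMARCA4-KD2, with the extraction error as bars and 1.5-fold as dashed lines. LAMA3, ITGB8, ITGA3, ITGA10 and ITGAX lie left of the dashed line in both knockdowns, and no point lies right of the other dashed line.

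Among the laminin-binding alpha subunits, all 3 genes were lower in both knockdowns and ITGA3 passed 1.5-fold. The RNA came from whole cultures, so fewer cells with a transcript and less of it per cell cannot be told apart. ITGA3, the alpha subunit of the laminin-332 receptor alpha3 beta1, had signals of 2315, 1805 and 3473. Both knockdown arrays were below NC, by 1.59-fold (log2 change -0.67 ± 0.20, extraction error) and 1.97-fold (-0.98 ± 0.20). Its probe lies at chr17:48167365-48167424 (hg19). ITGA7, a laminin receptor subunit best known from muscle, had signals of 1122, 1025 and 1466 and log2 changes of -0.47 and -0.55. ITGA6, which pairs with beta4 in hemidesmosomes, had signals of 5579, 4930 and 5780 and changes of -0.14 and -0.26, the smallest of the 3 in size.

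The collagen-binding alpha subunits had 3 measured members, all lower in both knockdowns, while ITGA11 was not well above background on any array. ITGA10 (probe at chr1:145543808-145543867, hg19) had signals of 30.3, 29.5 and 50.2. The knockdown values lay close together at 1.76-fold and 1.74-fold below NC, with log2 changes of -0.81 ± 0.29 and -0.80 ± 0.28. ITGA1 had signals of 19.4, 27.3 and 36.4 and was below NC by 1.99-fold in SMARCA4-KD1 but by 1.36-fold (-0.45 ± 0.30) in SMARCA4-KD2, which did not pass 1.5-fold. The ITGA1 signal in SMARCA4-KD1 was near the lowest signal well above background. ITGA2, the alpha subunit of the alpha2 beta1 collagen receptor of epithelia and platelets, had signals of 164, 161 and 201 and changes of -0.37 and -0.35. With normexp and the offset the ITGA10 changes became -0.35 and -0.31 and the ITGA1 change in SMARCA4-KD1 became -0.46.

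The RGD-binding alpha subunits did not move as 1 group, and none of them passed 1.5-fold. ITGA5, the fibronectin receptor subunit, had signals of 770, 554 and 538. Its changes were 0.43 ± 0.20 and 0.01 ± 0.20, so SMARCA4-KD1 stood above the other arrays. ITGAV, which pairs with several beta subunits to bind vitronectin and latent TGF-beta, had signals of 2240, 2077 and 2486 and changes of -0.24 and -0.29. Its probe had 10 spots per array, less outliers left out in SMARCA4-KD2. ITGA2B, the platelet fibrinogen receptor subunit, was well above background in the knockdowns and not in NC, with signals of 19.2, 19.0 and 15.2, and against the lowest detectable level of NC it was at least 1.02-fold and 1.05-fold higher. ITGA8 was not well above background. ITGA9, a receptor subunit for tenascin and osteopontin, had signals of 64.0, 58.6 and 72.7 and changes of -0.27 and -0.34, and its relative ITGA4 was not detected.

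Of the alpha subunits named for leukocytes, 3 were measured, all near or below NC. ITGAX, also known as CD11c, an alpha subunit of a complement receptor, had signals of 7.89 and 8.43 in the knockdowns, not well above background, and 42.5 in NC, which was. ITGAX was therefore at least 2.67-fold lower in either knockdown by its brightest probe, at chr16:31393951-31394010 (hg19). With normexp and the offset the ITGAX changes were -0.62 and -0.56, and SMARCA4-KD2 no longer passed 1.5-fold. A second ITGAX probe was well above background in SMARCA4-KD2 alone, with signals of 3.46, 18.2 and 5.42 in the same order, and gave no difference from the lowest detectable level of NC. ITGAM had signals of 27.1, 26.1 and 28.8 and a change of -0.17 in both knockdowns. ITGAE, the alpha subunit that pairs with beta7 to bind E-cadherin, had signals of 2882, 2552 and 2917 and changes of -0.10 and -0.23. ITGAD, ITGAL and their partner ITGB2 were not detected. Of the leukocyte markers, PTPRC had signals of 49.4, 37.0 and 46.3, CD14 had signals of 54.4, 45.8 and 53.2, and CD3E was not well above background. Their part in the leukocyte subunit values was not tested.

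Of the beta subunits, 5 were measured and ITGB8 was the only one past 1.5-fold. ITGB8, which with alphaV binds latent TGF-beta, had signals of 23.4, 34.2 and 62.7 at its single probe (chr7:20455137-20455196, hg19). The values were 2.84-fold (-1.51 ± 0.31) and 1.87-fold (-0.91 ± 0.26) lower than NC. ITGB8 was also the only measured member at least 1.5-fold apart between the knockdowns, with SMARCA4-KD1 below SMARCA4-KD2 by 0.60 ± 0.33 on the log2 scale, where 6.52% of all genes were 1.5-fold apart. With normexp and the offset the ITGB8 changes were -0.68 and -0.47, and SMARCA4-KD2 no longer passed 1.5-fold.

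Of the beta subunits with brighter probes, ITGB1, ITGB4 and ITGB7 lay near NC, and ITGB5 was lower in both knockdowns but short of 1.5-fold. ITGB1, the partner of many alpha subunits including alpha3, alpha2 and alpha10, had signals of 2249, 2368 and 2162 and changes of -0.03 and 0.10. Its probe had 10 spots per array, less outliers left out in SMARCA4-KD2. ITGB4, the hemidesmosomal partner of alpha6, had signals of 15202, 16810 and 16200 and changes of -0.18 and 0.02. ITGB5, a vitronectin receptor subunit, had signals of 1640, 1537 and 1940 and changes of -0.33 and -0.37. ITGB7 had signals of 93.1, 99.0 and 94.4 and changes of -0.11 and 0.04. ITGB3 and ITGB6 were not detected on any array.

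**Figure D3:**
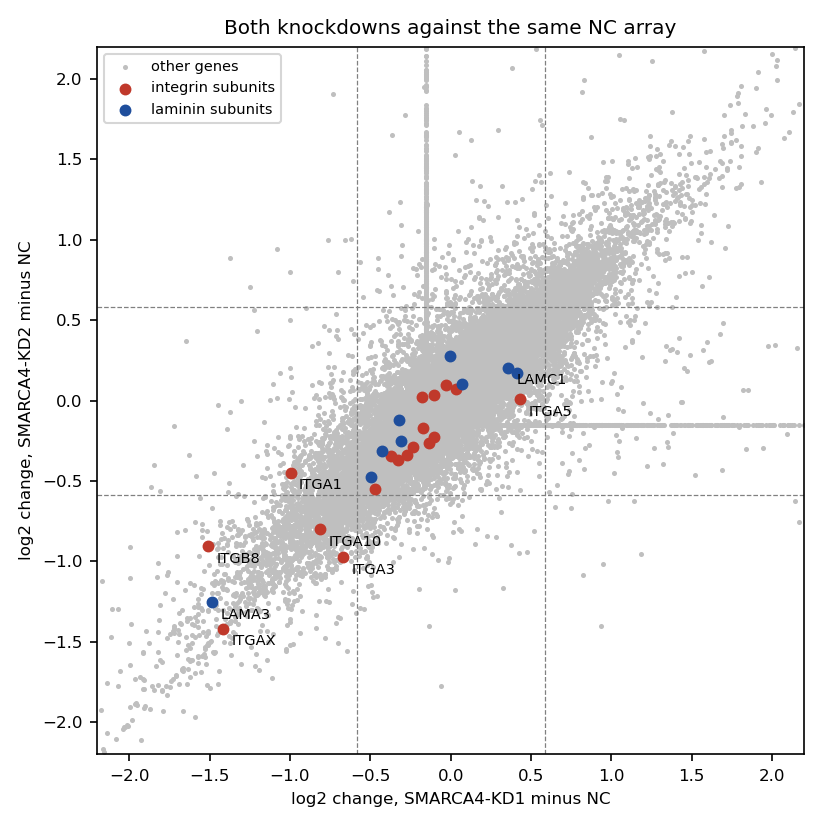
Log2 change of the measured genes in SMARCA4-KD1 (x axis) and SMARCA4-KD2 (y axis), with integrin subunits in red, laminin subunits in blue and all others in grey; dashed lines are 1.5-fold, and 172 genes lie outside the axes, none of them a member. ITGB8 lies to the left of LAMA3 and above it, and both axes share the NC array.

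Both LAMA3 and LAMB3, chains of laminin-332, were lower than NC in both knockdowns, and LAMA3 was the only laminin chain past 1.5-fold in both. LAMA3, the alpha chain, had signals of 191, 216 and 503, so NC stood well above the other arrays. It was 2.80-fold (-1.48 ± 0.21) and 2.39-fold (-1.26 ± 0.21) lower by its probe at chr18:21534735-21534794 (hg19). The second LAMA3 probe was not well above background on any array. LAMA3 was 1 of 2 members past 2-fold in both knockdowns, with ITGAX, where 2.10% of all genes were 2-fold lower in both. The ITGAX probe entered only through its level in NC. Of all genes, 0.924% had a lower mean change than LAMA3. With normexp and the offset its changes were -1.24 and -1.05.

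LAMB3, the beta chain of laminin-332, had signals of 7050, 6899 and 9369 and changes of -0.50 and -0.47, short of 1.5-fold. With quantile normalization LAMB3 passed 1.5-fold in both knockdowns. The log2 changes of LAMA3 were thus larger in size than those of LAMB3 in each knockdown.

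The chains of laminin-511, a broadly expressed epithelial laminin made of LAMA5, LAMB1 and LAMC1, did not change in 1 direction. LAMA5 had signals of 33951, 35281 and 42945 and changes of -0.42 and -0.32, and its second probe gave -0.23 and -0.32. LAMB1 had signals of 2776, 3069 and 3270 and changes of -0.32 and -0.12, but its second probe, with signals of 156, 128 and 115, gave 0.35 and 0.12. LAMC1, the gamma chain of most laminins, had signals of 3380, 2928 and 2485 and changes of 0.36 and 0.20, in the other direction from LAMA5.

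The chains LAMA2, LAMB2 and LAMC3 did not pass 1.5-fold at their brightest probes, and LAMB2 and LAMC3 differed between their probes. LAMA2, the alpha chain of muscle laminin, had signals of 453, 369 and 320 and changes of 0.41 and 0.17. LAMB2 had signals of 2670, 3119 and 2519 and changes of -0.0019 and 0.28, and its second probe gave -0.15 and -0.17. LAMC3 had signals of 393, 387 and 352 at its brightest probe and changes of 0.07 and 0.10, but its second probe, with signals of 69.0, 70.4 and 93.2, gave -0.52 and -0.44.

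LAMA4, the alpha chain of endothelial and smooth muscle basement membranes, had 4 detected probes that did not give 1 direction. The brightest, at chr6:112429141-112429200 (hg19), had signals of 59.2, 59.5 and 69.2 and changes of -0.31 and -0.25. The probe at chr6:112506440-112506499 had signals of 54.0, 48.3 and 22.6 and was higher than NC by 1.17 ± 0.32 and 1.07 ± 0.32 on the log2 scale. This was the only member probe past 1.5-fold above NC in both knockdowns. Another LAMA4 probe had signals of 32.9 and 19.3 in the knockdowns and 10.3, not well above background, in NC, and the last gave 0.07 and 0.15. With the mean over its probes LAMA4 was higher in both knockdowns, by 0.44 and 0.27. Which exons each probe reads was not analysed here. Of the endothelial markers PECAM1 was not well above background, while the summed signal of VWF and CDH5, at the brightest probe of each, was 73.9, 113 and 61.0. VWF alone had signals of 27.9, 52.0 and 24.1 at that probe, with changes of 0.13 and 1.08. Another VWF probe read 40.9 in NC, so the NC sum depends on the probe used. The part of these markers in the LAMA4 values was not tested. LAMA1 and LAMB4 were not detected.

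Across all members, 8 genes had more than 1 detected probe, with 10 probes besides the brightest. The mean change of 4 of these had the sign of the brightest probe and that of 6 had the opposite sign. The second ITGA6 probe had signals of 1999, 1495 and 1843 and changes of 0.03 and -0.33. Of the 5 members lower in both knockdowns, ITGA3, ITGA10 and ITGB8 had 1 probe on the array, and none had a second probe well above background in NC.

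**Figure D4:**
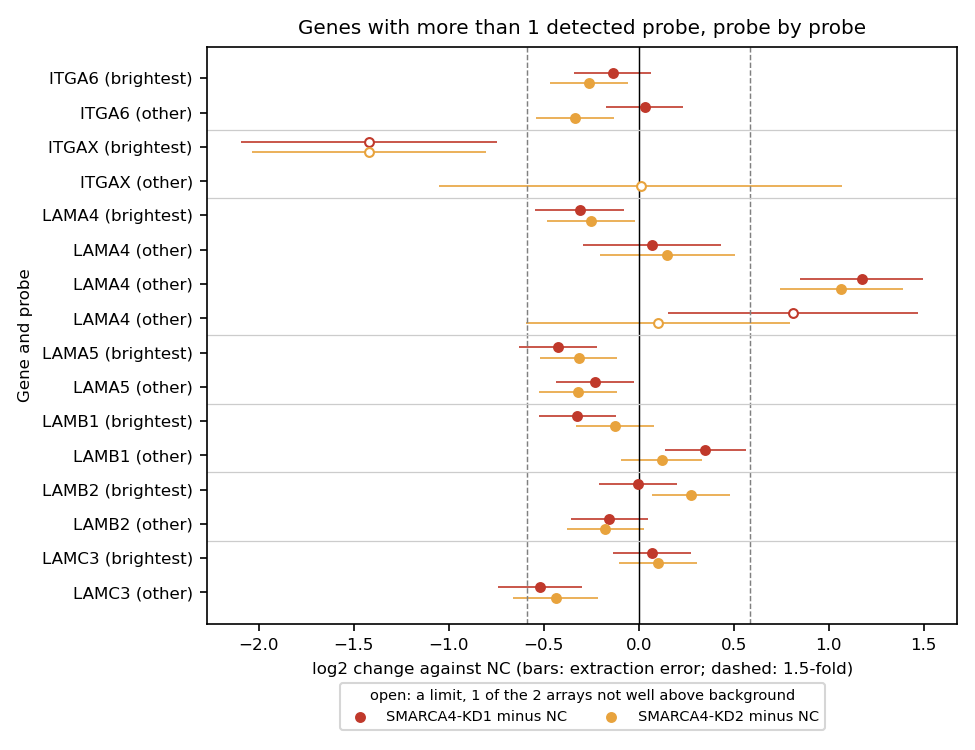
Log2 change against NC of the detected probes of members with more than 1 detected probe, with extraction errors as bars and 1.5-fold as dashed lines; a change is left out where neither array was well above background. The LAMA4 probes lie on both sides of 0, with 1 of them at 1.17 and 1.07, while both LAMA5 probes lie below 0.

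The 10 undetected members were ITGA4, ITGA8, ITGA11, ITGAD, ITGAL, ITGB2, ITGB3, ITGB6, LAMA1 and LAMB4. The highest signal of any of their probes was 14.6, 14.3 and 15.7 on the arrays in the same order, all under the lowest signal well above background, so a difference there was not detectable on these arrays.

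The knockdown arrays lay about as close to each other over the members as over all genes. The median size of the difference between SMARCA4-KD1 and SMARCA4-KD2 was 0.12 on the log2 scale over the 28 members and 0.13 over all genes. After ITGB8 the members furthest apart were ITGA1 (-0.55 ± 0.37, SMARCA4-KD1 lower), ITGA5 (0.42 ± 0.20, SMARCA4-KD1 higher) and ITGA3 (0.31 ± 0.20, SMARCA4-KD1 higher).

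When both knockdown arrays were set against NC in limma, which has 1 residual degree of freedom and assumes that NC varies like the knockdown arrays, no gene of 22620 and no member passed an adjusted p of 0.05. The smallest adjusted p of a member was 0.106 (limma, Benjamini-Hochberg), for LAMA3, LAMB3 and ITGAX. Both ITGAX knockdown values in that fit were the raised lowest detectable level, so their closeness was not measured. At an unadjusted p under 0.05, limma gave 6893 genes, or 30.5%, and 10 members. The methods' t-test gave 3221 genes and 5 members at this level and none after adjustment. When only genes well above background on all arrays were tested, a choice made after the data were seen, limma called 5176 of 19504 genes, or 26.5%, and 8 of 26 members, all lower. Among these the adjusted p in limma was 0.00195 for LAMA3, 0.00674 for ITGA3, 0.0122 for LAMB3, 0.0184 for ITGA7, 0.0263 for ITGB8, 0.0328 for LAMA5 and 0.0483 for ITGA10. The count of calls thus differed with the genes that entered the fit.

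Of the adaptors that connect integrins to actin, 36 of 40 listed genes were measured. At 1.5-fold 7 were lower in both knockdowns and 1 was higher in both, beside 8.02% and 6.35% of all genes, and the median changes of the list were -0.21 and -0.11. PARVA, alpha-parvin, which binds ILK behind integrin tails, had signals of 247, 292 and 783 and changes of -1.75 ± 0.21 and -1.46 ± 0.20. LIMS2, a PINCH protein of the same complex, had signals of 996, 1132 and 1890 and changes of -1.01 and -0.77. The kinase ILK itself had changes of 0.36 and -0.04, so the members of this complex did not share 1 value.

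The actin-binding proteins of the list were lower at several genes. ACTN4, an alpha-actinin that crosslinks actin, had signals of 4886, 3333 and 7769 and changes of -0.76 and -1.25. FLNA, filamin A, which binds beta tails, had signals of 3516, 3061 and 5362 and changes of -0.69 and -0.84, and its second probe gave -0.28 and -0.76. FBLIM1, migfilin, which binds filamin and kindlin, had signals of 50.9, 46.3 and 103 and changes of -1.11 and -1.19, while its second probe was well above background in SMARCA4-KD1 alone, with signals of 24.4, 14.8 and 17.2. VASP, which promotes actin filament growth, had signals of 2141, 2279 and 3799 and changes of -0.91 and -0.77.

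TNS4, a tensin that binds the beta1 tail, had signals of 1256, 1159 and 4029 and changes of -1.77 and -1.83. TNS4 was chosen by the study on these arrays, so it is not independent evidence of a direction. SRC, a kinase of focal adhesions, was the only adaptor gene 1.5-fold higher in both, with signals of 791, 710 and 445 and changes of 0.74 and 0.64. The kindlins FERMT1 (-0.20 and -0.30) and FERMT2 (-0.18 and -0.14) did not pass 1.5-fold.

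Of 25 basement membrane and hemidesmosome genes, 18 were measured, and 2 (11.1%) were lower and 2 higher in both knockdowns, beside 8.02% and 6.35% of all genes, with medians of -0.19 and -0.05. PLEC, plectin, which ties the beta4 tail to keratin filaments, had signals of 1533, 1596 and 2639 and changes of -0.87 and -0.76, with a second probe at -0.24 and -0.79. SPP1, osteopontin, an RGD ligand, had signals of 22.3, 24.8 and 80.0 and changes of -1.93 ± 0.31 and -1.72 ± 0.29. The type IV collagen chains COL4A5 (2092, 2047 and 1261) and COL4A6 (190, 171 and 99.5) were higher, with changes of 0.64 and 0.67 and of 0.85 and 0.75. With normexp and the offset neither collagen passed 1.5-fold in both knockdowns.

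**Figure D5:**
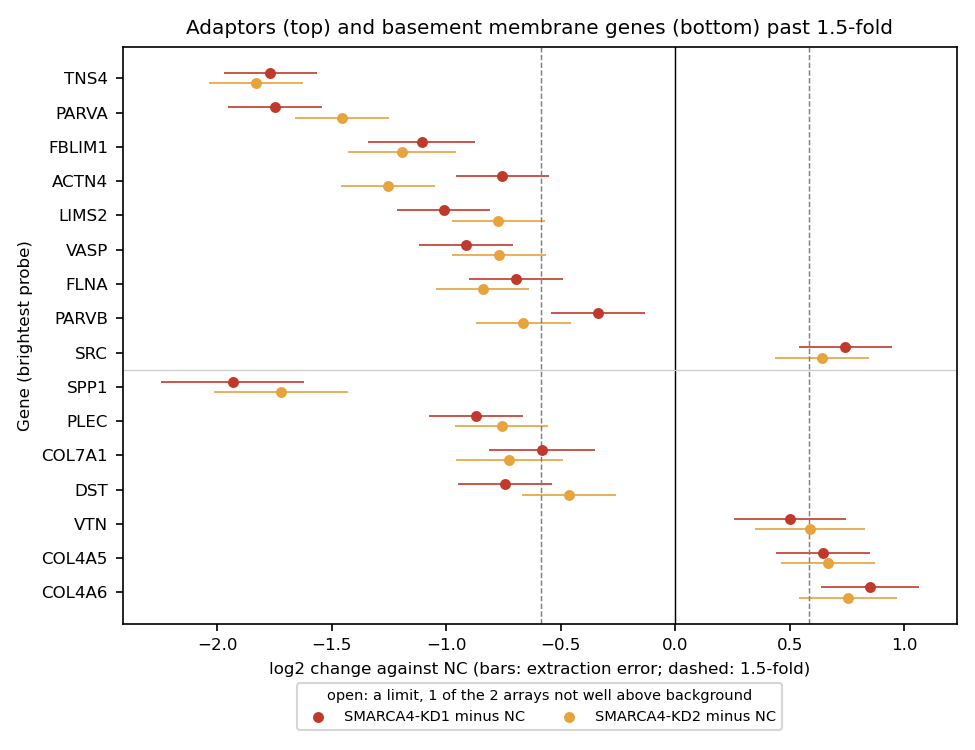
Log2 change against NC of the adaptor genes (upper block) and basement membrane and hemidesmosome genes (lower block) at least 1.5-fold from NC in either knockdown, with extraction errors as bars and 1.5-fold as dashed lines. PARVA, TNS4 and SPP1 lie furthest left, at -1.46 or below in both knockdowns, and SRC, COL4A5 and COL4A6 lie right of the upper dashed line.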

How the data were processed

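HCT116 cells of SMARCA4-KD1, SMARCA4-KD2 and NC were profiled on 1-colour Agilent arrays, 1 array per condition. The deposited files are scanner output. In these, Agilent Feature Extraction 10.7.1.1 (per the submitters' processing notes) had subtracted background from each spot's intensity and detrended it, with no normalization between arrays. The deposited files also hold flags for outlier, saturated and well above background spots and the software's error of each processed signal, used as given. The deposited series-level table holds the same processed intensity, and 1 of 57871 probes with 1 spot differed by more than 0.1% from the scanner files. The paper's methods name a fold of 1.5 and a p of 0.01, and a p cannot be had for a single knockdown array.

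Control spots and outlier spots were left out, repeated spots were averaged on the log2 scale, and each array's 75th percentile was subtracted. Values not well above background were raised to the lowest value well above background on their array. A probe was kept if at least 1 array had it well above background (29334 probes), and each of 22620 genes was represented by its brightest probe. Folds against a raised value are limits. Both knockdowns against NC were also fitted with limma 3.58.1 (R 4.3.3, intensity trend, Benjamini-Hochberg adjustment). Tables and plots used Python 3.11.15, numpy 2.4.6, pandas 2.3.3 and matplotlib 3.10.9. Gene names and hg19 positions are those of the array files, and all 38 member symbols were found in RefSeq. The steps were tested on simulated data.

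The genes named are the members other than 1 that is not reported here, the genes of the adaptor list and of the basement membrane and hemidesmosome list that were 1.5-fold from NC in the same direction in both knockdowns, SMARCA4, PRMT1 and TNS4. ILK, FERMT1 and FERMT2 were named after their values were seen. The members and lists were chosen with earlier results of these data known. The 3 arrays share no replicate, so the number of arrays limits the precision. Alternatives were a threshold of 2-fold, normexp with an offset of 50, quantile normalization, a percentile taken over detected probes, the series-level table, no floor, no filter, a filter requiring detection on every array, averaging probes of a gene, counting probes, and limma without trend or without adjustment. The limma fit over genes detected on every array, normexp without its offset, the offset of 50 without normexp, and the alternatives of both lists and of SMARCA4 and PRMT1, were added after the data were seen.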

Additional observations from a re-analysis of the deposited data

Results flagged for a closer look

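Another LAMC3 probe, not used in any comparison, stood at 10979.2 in SMARCA4-KD1 against 3.35 in SMARCA4-KD2 and 10.73 in NC (processed signals). The SMARCA4-KD1 spot was marked as an outlier by the extraction software and left out, and the value stands far above that of NC. The brightest LAMC3 probe had 393, 387 and 352 on the same arrays.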

How the results depend on the processing

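No change in a called direction was found for any member under the alternatives run. With normexp background correction and its offset the members lower in SMARCA4-KD1 numbered 4, those lower in SMARCA4-KD2 3, and LAMA3 was the 1 lower in both, and 0 basement membrane genes were higher in both. At 2-fold the counts were 3 for SMARCA4-KD1 and 2 for SMARCA4-KD2, with 2 members, LAMA3 and ITGAX, lower in both. These 2 were 7.14% of the members, beside 2.10% of all genes. The ITGAX probe entered only through its level in NC, and its folds are limits. At 2-fold the adaptor list held 3 genes lower and 0 higher in both, and the basement membrane list 1 lower and 0 higher. With probes in place of genes 2 members were higher in SMARCA4-KD1 against 1 in SMARCA4-KD2, and 1, LAMA4, was higher in both. The basement membrane list held 4 lower genes with the percentile over probes well above background and 4 with the series-level table, and 1 with the mean over probes. Quantile normalization gave 6 members lower in both, LAMB3 among them, or 21.4% beside 8.59% of all genes. The filter on all arrays gave 4, without ITGAX, or 15.4% beside 7.51%. With normexp and no offset 1 basement membrane gene was higher in both. With 50 added to the processed signal 1 was too, and 4 members were lower in SMARCA4-KD1, 2 in the other knockdown and 2 in both. In limma the filter on all arrays called 5176 genes and 8 members, and an unadjusted p gave 6893 and 10. The other 157 summary values kept their direction and stayed within 1.5 times of the count or within the extraction error of the change. Of the changes of single members under the alternatives, 791 stayed within that error and 43 moved by more. ITGAX ranged from -2.45 with the series-level table to -0.52 with 50 added to the signal in its mean change. With no filter the median of all genes was -0.15 in both knockdowns. No paired analysis was possible because each condition has 1 array. Signals near or under the lowest level well above background, such as those of ITGA2B and of ITGAX in the knockdowns, limit what can be measured.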

Other observations

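Some members lie next to each other in the genome, by the hg19 positions of their brightest probes, and their values are set side by side here. The probes of ITGA1 and ITGA2 lie 140 kb apart on chromosome 5, and their mean log2 changes over both knockdowns were -0.72 and -0.36. ITGAM and ITGAX lie 50.1 kb apart on chromosome 16, with mean changes of -0.17 and -1.42, the latter a limit. These pairs were picked for their position after the values were seen, and no difference within a pair was tested.

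Of the fibroblast markers, COL1A1 was well above background, with signals of 477, 387 and 348 for SMARCA4-KD1, SMARCA4-KD2 and NC, while COL1A2, DCN and LUM were not. Of the platelet markers, PF4 was not detected, and GP9 had signals of 17.7, 14.1 and 25.8. The endothelial marker CDH5 had signals of 46.0, 61.2 and 36.9 and was 1.5-fold higher in SMARCA4-KD2 and not in SMARCA4-KD1.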
